A study of Mus musculus with 6 samples.

Results

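The genes described here are 7 mouse genes of the matrix protease system, the metalloprotease genes Mmp2, Mmp14 and Mmp15, the serine protease gene Htra1 and the inhibitor genes Timp1, Timp2 and Timp3. They were followed through every probe that the deposited array table files under these symbols, 12 of 45281 probes. The genes were chosen by their measured changes between day 0, day 2 and day 5 of this experiment, which were already known, so their day values are given as a description and are not tested. All 7 were among the 12030 genes that passed the detection filter, which asked for a detection p under 0.05 in both clones on 1 or more of the days. Mmp15 and Timp3 passed only through day 5 and therefore had to be higher there.

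Total RNA came from mouse induced pluripotent stem (iPS) cell lines that carry no functional Nac1, a BTB-domain gene of pluripotent cells, and into which human NAC1 (hNAC1) was returned. Day 0, day 2 and day 5 of this rescue were sampled in Nac1 null clone 7 and in Nac1 null clone 5, with 1 bead array for each clone and day, so n = 2 arrays per day. All 6 arrays thus share the null background, each clone is a single line, and the arrays of a day are different lines and not repeated cultures. The construct that carried hNAC1 is not described in the sources used here, and cells without hNAC1 at later days were not analysed here, so the rescue and the time in culture cannot be told apart.

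Matrix metalloproteases are zinc enzymes that are made as inactive precursors and cut collagens and other matrix proteins once their propeptide is removed. MMP2 (gelatinase A) is secreted, and the membrane-anchored MMP14 activates it at the cell surface, where TIMP2 bridges the pair; MMP15 is a second membrane-type enzyme. TIMP proteins bind the active site of these enzymes and block it, TIMP3 being the one that stays bound to the matrix, and HTRA1 is a secreted serine protease that cuts fibronectin and other matrix proteins outside this circuit.

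Each array detected 16739 to 18150 of its probes. Nacc1, the mouse gene also called Nac1, was read by 3 probes, and 2 of them were detected on all 6 arrays, at 142 to 159 and at 202 to 234 raw intensity; where these probes lie relative to the disrupted part of the gene is not given, so they do not check the null label. All 8 pluripotency markers were measured, with a summed normalised intensity of 12874 and 13111 on day 0, 13665 and 15576 on day 2 and 11820 and 13847 on day 5 in clones 7 and 5. Of 12 fibroblast markers only Thy1 was measured (34.0 to 436 over the arrays), while Col1a1, Col1a2, Col3a1, Pdgfra, Pdgfrb, Lum, Dcn, Postn, Acta2, Twist2 and Prrx1 did not pass the detection filter. Measured too were 3 of 10 markers of primitive and parietal endoderm (Gata6, Col4a1 and Lama1, sums from 429 to 939), 2 of 6 of macrophages and blood (Cd68 and Laptm5, 3658 to 7581) and 2 of 5 of endothelium (Tek and Vwf, 56.9 to 107). Gata4, Sox17, Ptprc, Adgre1 and Cdh5 were among those that did not pass.

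Mmp2 was the metalloprotease gene with the largest day 2 difference. Its probe read 1067 in clone 7 and 901 in clone 5 on day 0, 259 in clone 7 and 277 in clone 5 on day 2, and 218 in clone 7 and 308 in clone 5 on day 5, as raw bead intensity. Both day 0 arrays lay far above the other 4, and the day 2 values lay between those of the clones on day 5. After background correction and quantile normalisation, Mmp2 was lower on day 5 than on day 0 by a log2 difference of -2.33 ± 0.22 (SE of the fit, 5.03-fold), with -2.74 in clone 7 and -1.92 in clone 5. Day 2 against day 0 gave -2.27 ± 0.22, and day 5 against day 2 gave -0.06 ± 0.22, with -0.27 in clone 7 and 0.15 in clone 5. Mmp2 was thus close to its day 5 level on day 2 in both clones, and the clones differed in direction after that. Thy1, the only measured fibroblast marker, read 56.9 in clone 7 and 436 in clone 5 on day 0, 34.0 in clone 7 and 117 in clone 5 on day 2, and 195 in clone 7 and 167 in clone 5 on day 5 as normalised intensity, and the part of such cells in the level of Mmp2 was not tested. In bulk RNA, fewer cells of a type and less RNA per cell cannot be told apart.

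Mmp14, the gene of the membrane enzyme that activates MMP2, was lower on both later days by a smaller amount. Its main probe read 288 in clone 7 and 267 in clone 5 on day 0, 211 in clone 7 and 226 in clone 5 on day 2, and 184 in clone 7 and 203 in clone 5 on day 5. No array of one day overlapped with an array of another, and both clones were lower at each later day. The log2 difference was -0.84 ± 0.17 on day 5 against day 0 (1.80-fold), -0.57 ± 0.17 on day 2 against day 0 and -0.27 ± 0.17 on day 5 against day 2. The other Mmp14 probe stayed between 90.7 and 103, was detected on 2 of 6 arrays and was 0.19 higher on day 5 than on day 0, so the lower level of Mmp14 rests on 1 probe.

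Htra1 and Mmp2 had the largest day 5 differences of the 7 genes, and for Htra1 2 probes showed it. The probe used read 720 in clone 7 and 772 in clone 5 on day 0, 259 in clone 7 and 388 in clone 5 on day 2, and 177 in clone 7 and 236 in clone 5 on day 5. The days did not overlap, and the signal was lower on day 5 than on day 2 in both clones. The log2 difference was -2.44 ± 0.20 on day 5 against day 0 (5.42-fold), -1.55 ± 0.20 on day 2 against day 0 and -0.89 ± 0.20 on day 5 against day 2. The other Htra1 probe read 594 in clone 7 and 662 in clone 5 on day 0, 231 in clone 7 and 344 in clone 5 on day 2, and 167 in clone 7 and 219 in clone 5 on day 5, and gave -2.32, -1.50 and -0.81 for the same comparisons. On both probes clone 7 was below clone 5 on every day. In the authors' deposited table of fold changes, Htra1 is listed with log2 fold changes of -2.59 and -2.49 on day 5 for its probes, and Mmp2 with -2.43 on day 5 and -2.38 on day 2; the other 5 genes are not in the 698 probes of that table.

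Mmp15, the gene of the second membrane-type enzyme, was close to background. Its only probe read 99.9 in clone 7 and 97.8 in clone 5 on day 0, 93.5 in clone 7 and 102 in clone 5 on day 2, and 101 in clone 7 and 111 in clone 5 on day 5. It was detected on 0, 1 and 2 arrays of days 0, 2 and 5. With the undetected day 0 arrays set at the lowest detected signal, day 5 was at least 1.12-fold higher, and day 2 gives no fold. The fitted log2 difference of day 5 against day 0 was 0.28 ± 0.19, 0.10 in clone 7 and 0.47 in clone 5, and it was 0.08 without background correction.

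**Figure D1:**
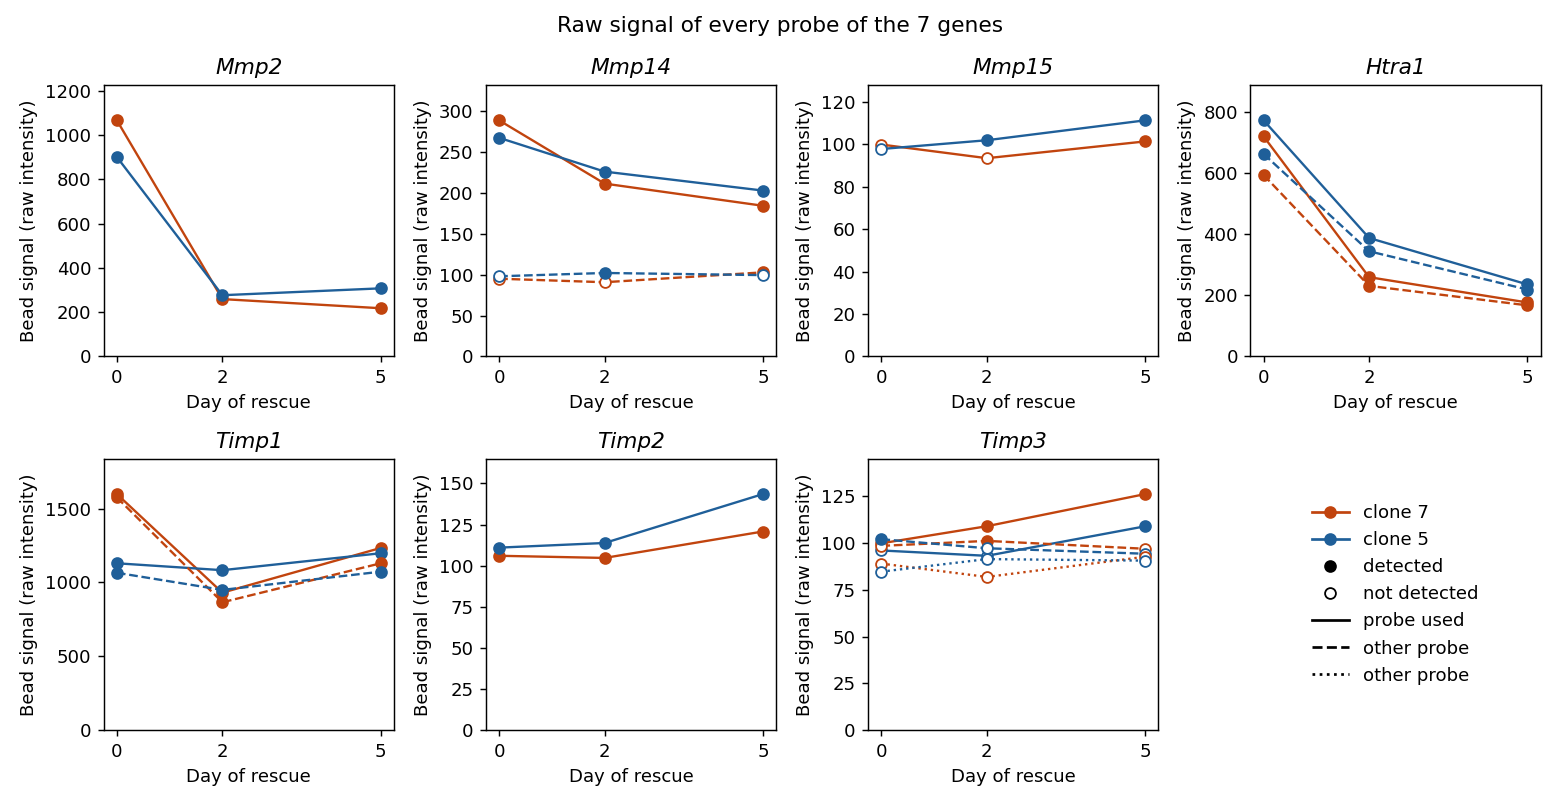
Raw bead intensity of all 12 probes of the 7 genes (y axis, linear and starting at 0, with its own scale for each gene) against day of rescue (x axis), in clone 7 (orange) and clone 5 (blue). Filled points are detected and open points are not; each point is 1 array. Mmp2, Htra1 and the main probe of Mmp14 are highest on day 0 in both clones, while Timp2 and the main probe of Timp3 are highest on day 5.

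On the probes used, none of the inhibitor genes was lower on day 5 than on day 0 in both clones. Timp1, whose product inhibits secreted metalloproteases, was well above background on every array. Its main probe read 1598 in clone 7 and 1130 in clone 5 on day 0, 931 in clone 7 and 1083 in clone 5 on day 2, and 1233 in clone 7 and 1198 in clone 5 on day 5. The day 0 array of clone 7 stood above the other 5, the day 0 array of clone 5 lay between those of days 2 and 5, and both day 2 arrays lay below those of day 5. Against day 0 the log2 difference was -0.16 ± 0.22 on day 5, -0.36 in clone 7 and 0.042 in clone 5, and -0.47 ± 0.22 on day 2, -0.86 in clone 7 and -0.07 in clone 5. The second Timp1 probe read 1575 in clone 7 and 1066 in clone 5 on day 0, 866 in clone 7 and 950 in clone 5 on day 2, and 1130 in clone 7 and 1073 in clone 5 on day 5. It gave -0.27 and -0.57 for these comparisons, and in normalised log2 values it was lower on day 5 than on day 0 in both clones (10.10 against 10.57 in clone 7, 9.89 against 9.95 in clone 5). Without the day 0 array of clone 7 the day 5 difference turned to 0.14, and without that of clone 5 it was -0.46.

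Timp2, the inhibitor gene whose product also takes part in MMP2 activation, was low but detected on all 6 arrays by its single probe. The probe read 106 in clone 7 and 111 in clone 5 on day 0, 105 in clone 7 and 114 in clone 5 on day 2, and 121 in clone 7 and 144 in clone 5 on day 5. Both day 5 arrays lay above the other 4, and days 0 and 2 overlapped. The log2 difference was 0.66 ± 0.17 on day 5 against day 0, 0.04 ± 0.17 on day 2 against day 0 and 0.62 ± 0.17 on day 5 against day 2, and the clones gave 0.60 (clone 7) and 0.73 (clone 5) on day 5 against day 0. The size of this low signal depended on the background step, with 0.24 without background correction, 0.37 with a larger offset of 50 and 1.09 in the authors' series values.

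Timp3, which encodes the matrix-bound inhibitor, was read by 3 probes, of which only the one used reached detection on both arrays of a day. That probe read 99.8 in clone 7 and 96.0 in clone 5 on day 0, 109 in clone 7 and 93.2 in clone 5 on day 2, and 126 in clone 7 and 109 in clone 5 on day 5. It was detected on 0, 1 and 2 arrays of these days, and clone 7 was the higher clone on each. Day 5 was at least 1.54-fold higher than day 0, and the fitted log2 difference was 0.78 ± 0.21, 1.10 in clone 7 and 0.47 in clone 5. The fitted value was 0.25 without background correction and 1.90 in the authors' series values, and the other probes gave -0.24 (detected on 2 of 6 arrays, 94.3 to 102) and 0.08 (detected on none, 81.9 to 92.6). Among the marker genes, Gata6 of the endoderm list was detected on 0, 1 and 2 arrays of days 0, 2 and 5 as Timp3 was, so it too passed the filter only through day 5 and had to be higher there. The endothelial marker Tek, detected on all 6 arrays, was called higher on day 5 than on day 0 by limma (1.29 ± 0.20, adjusted p = 0.0217). The other measured genes of these lists did not share this and were not called. Col4a1 of the endoderm list was at -0.96, with -0.68 in clone 7 and -1.24 in clone 5. Lama1 of that list was at -0.19 in clone 7 and 1.63 in clone 5, and Vwf of the endothelial list at 0.085. Most genes of both lists did not pass the detection filter. The part of such cells in the levels of Timp2 and Timp3 was not tested.

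**Figure D2:**
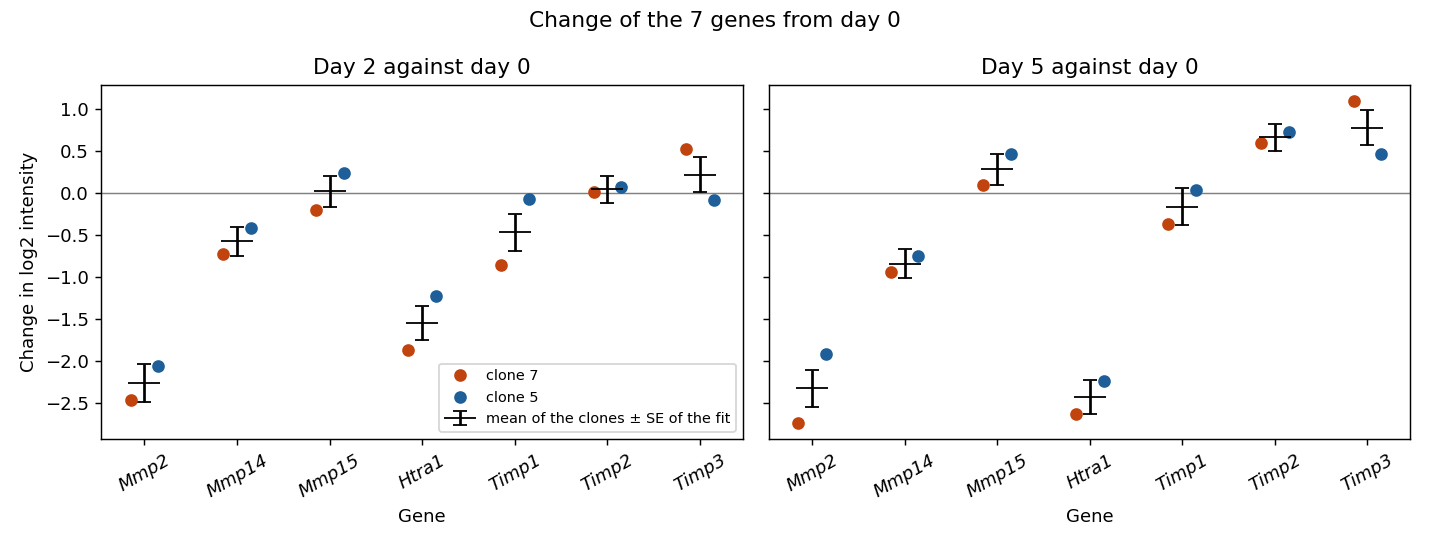
Change in log2 intensity against day 0 (y axis) for each of the 7 genes (x axis), on day 2 (left) and day 5 (right). Orange and blue points are clone 7 and clone 5, and black bars are the mean of the clones ± SE of the fit. Mmp2, Mmp14 and Htra1 lie below 0 in both clones on both days, and on day 5 Mmp15, Timp2 and Timp3 lie above 0 in both clones.

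Counted together on day 5 against day 0, 4 of the 7 genes were below 0 and 3 above, and 3 (Mmp2, Mmp14 and Htra1) were among the genes that limma called at an adjusted p under 0.05, all lower. Of all 12030 genes, 4.26% were called in this comparison, 1.8% lower and 2.46% higher. Nothing is read from the count of 3, since these changes chose the genes. Day 2 against day 0 called none of the 7 and 0% of all genes (1630 genes at an unadjusted p under 0.05), and day 5 against day 2 called none of the 7 and 0.79% of all genes, 0.59% higher and 0.2% lower (2148 at an unadjusted p under 0.05). The comparisons share their arrays and do not stand for separate observations.

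Promoter sequence was compared as a feature that took no part in picking the genes. The 250 bases before the RefSeq start (GRCm38.p6) were found for 6 of the 7 genes, all but Mmp2. Shown are Mmp14 and Htra1, lower on day 5, and Timp2 and Timp3, higher on day 5, on the probes used. Timp3 had to be higher there, as it passed the detection filter only through day 5. GC boxes (GGGCGG, a motif bound by Sp factors) and E-boxes (CACCTG, a motif bound by Zeb and Snail repressors) of either strand are in capitals.
Mmp14, GRCm38.p6 chr14:54431348-54431597, plus strand: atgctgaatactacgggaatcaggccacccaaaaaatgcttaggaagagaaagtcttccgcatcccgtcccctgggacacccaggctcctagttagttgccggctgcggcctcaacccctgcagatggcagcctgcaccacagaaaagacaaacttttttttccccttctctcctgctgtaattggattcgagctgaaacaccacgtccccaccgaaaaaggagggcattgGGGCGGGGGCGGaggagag
Htra1, GRCm38.p6 chr7:130935953-130936202, plus strand: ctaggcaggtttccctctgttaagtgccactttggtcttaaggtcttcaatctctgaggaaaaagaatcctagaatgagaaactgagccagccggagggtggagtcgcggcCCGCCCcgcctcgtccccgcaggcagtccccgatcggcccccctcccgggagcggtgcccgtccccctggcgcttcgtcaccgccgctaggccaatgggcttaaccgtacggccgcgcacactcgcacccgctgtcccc
Timp2, GRCm38.p6 chr11:118355412-118355661, minus strand: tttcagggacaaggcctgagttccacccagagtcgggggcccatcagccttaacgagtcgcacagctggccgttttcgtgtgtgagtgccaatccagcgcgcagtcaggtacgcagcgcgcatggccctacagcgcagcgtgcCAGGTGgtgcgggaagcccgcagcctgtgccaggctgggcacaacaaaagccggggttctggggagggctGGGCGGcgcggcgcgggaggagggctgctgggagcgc
Timp3, GRCm38.p6 chr10:86300162-86300411, plus strand: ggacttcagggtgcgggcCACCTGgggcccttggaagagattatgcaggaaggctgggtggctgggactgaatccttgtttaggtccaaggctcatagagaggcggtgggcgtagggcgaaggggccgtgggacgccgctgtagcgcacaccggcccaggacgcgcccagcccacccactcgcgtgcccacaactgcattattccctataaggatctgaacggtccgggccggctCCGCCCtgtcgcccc

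A GC box was present in all 6 promoters, Mmp15 and Timp1 included, and in 32.7% of the 32851 RefSeq promoter windows of this length. Mmp14 held 2 adjoining GC boxes and the other promoters 1 each. The E-box was present in Timp2 and Timp3 (1 each) and in Mmp15 (2), and was not found in Mmp14, Htra1 or Timp1; 17.2% of all windows hold it. The AP-1 motif TGANTCA (6.75% of windows) and the TATA box TATAAA (12.4%) were in none of the 6 windows. The number of CpG dinucleotides was 10 in Mmp14, 14 in Mmp15, 22 in Htra1, 6 in Timp1, 21 in Timp2 and 18 in Timp3, against a median of 6 over all windows. GC content ran from 54.4% in Timp1 to 68.0% in Timp2, against a median of 52.4% over all windows. These shares and medians are over all RefSeq windows and not over the genes measured here. A motif match is not a binding site, and a link between motifs and day 5 levels was not tested.

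Clone 7 against clone 5 is a contrast that did not choose the genes, and it was tested. The 3 arrays of each clone are the 3 days of a single line and not repeated cultures. The test therefore speaks only to how steady the difference of these lines was over the days. Averaged over the 3 days, the log2 difference of Timp3 was 0.55 ± 0.17 (SE, n = 3 arrays per clone, limma adjusted p = 0.302), with 0.14, 0.74 and 0.77 on days 0, 2 and 5. For Htra1 the difference was -0.44 ± 0.17 (adjusted p = 0.385), with -0.10, -0.73 and -0.49 on days 0, 2 and 5. For Timp2 it was -0.35 ± 0.14 (adjusted p = 0.399), with -0.28, -0.35 and -0.42. By limma none of the 7 passed, and 3 (Timp3, Htra1 and Timp2) had an unadjusted p under 0.05; of all genes, 0% passed and 1356 had an unadjusted p under 0.05. Mmp2 was at -0.12 ± 0.18, Mmp14 at -0.01 ± 0.14, Mmp15 at -0.21 ± 0.15 and Timp1 at 0.16 ± 0.18 (adjusted p from 0.668 to 0.988).

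For Mmp2 the difference of clone 7 minus clone 5 was 0.28 on day 0, -0.12 on day 2 and -0.54 on day 5, so the clone with the higher day 0 level had the lower day 5 level. Without either day 5 array the mean clone difference of Mmp2 was 0.083, without either day 2 array that of Mmp14 was 0.056, and without either day 0 array that of Timp1 was -0.037, each of the opposite sign. Htra1, Mmp15, Timp2 and Timp3 kept their sign in all fits that left out 1 array.

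**Figure D3:**
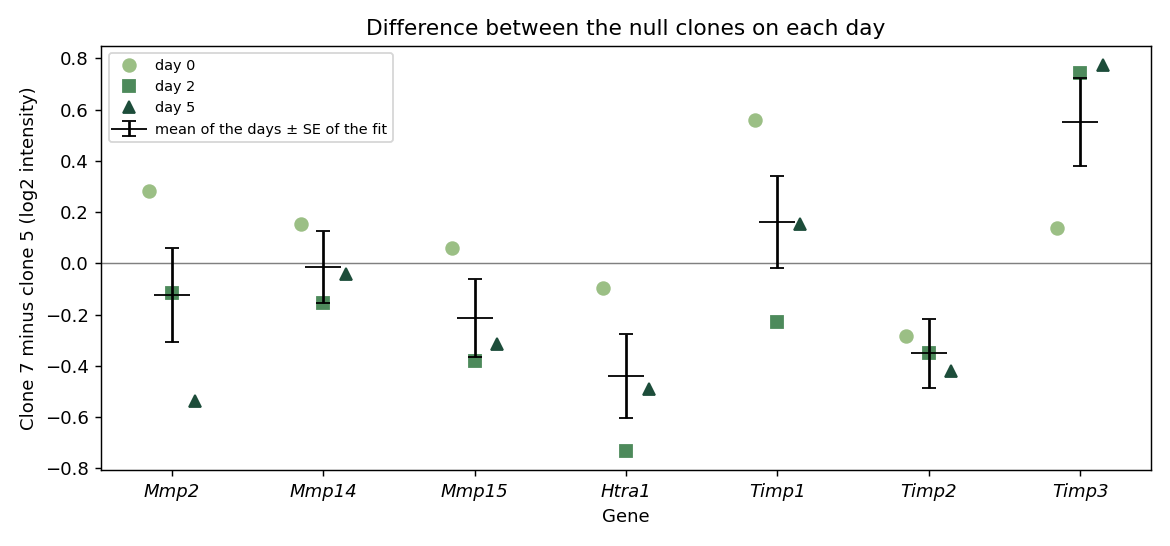
Clone 7 minus clone 5 in log2 intensity (y axis) for the 7 genes (x axis) on day 0 (circles), day 2 (squares) and day 5 (triangles), with the mean over days ± SE of the fit as black bars. Htra1 and Timp2 lie below 0 on all 3 days and Timp3 above 0.

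Across the 6 arrays, Htra1 and Mmp14 ran nearly parallel (Pearson r = 0.979), as did Mmp2 and Mmp14 (0.946) and Mmp2 and Htra1 (0.924). Timp1 correlated with Mmp2 at 0.571, Timp2 with Htra1 at -0.569 and Timp3 with Htra1 at -0.813, and Mmp15 with Timp2 at 0.882. Among 2332 other genes with a log2 range of at least 1, those most like Mmp2 were Fbxo2 (0.985), which encodes an F-box protein that recognises glycoproteins, Lxn (0.980), which encodes the carboxypeptidase inhibitor latexin, Trp53i11 (0.977) and A930026I22Rik (0.974). Those most like Htra1 were Porcn (0.990), which encodes the acyltransferase of Wnt proteins, Hr (0.988), Samd9l (0.987) and A930026I22Rik (0.982). The 95th percentile of r over these genes was 0.848 for Mmp2 and 0.894 for Htra1. All these values describe the same 6 arrays. Those among Mmp2, Mmp14, Htra1 and the genes most like Mmp2 and Htra1 share the high day 0. Mmp15 and Timp3 were each detected on only 3 of 6 arrays and on neither day 0 array, so their correlations rest partly on values near background. On day 5 against day 0 the genes most like Mmp2 were at -1.24 (Fbxo2), -0.99 (Lxn), -0.86 (Trp53i11) and -1.01 (A930026I22Rik), smaller differences than that of Mmp2. Those most like Htra1 were at -2.26 (Porcn), -1.22 (Hr) and -1.80 (Samd9l). Samd9l lay below the lowest detected log2 signal on day 5, at 4.28 against 4.677 in clone 7 and 4.32 against 4.588 in clone 5. Trp53i11 lay below it in clone 7 on day 5 (4.41). The sizes for Samd9l and Trp53i11 therefore rest partly on values near background.

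**Figure D4:**
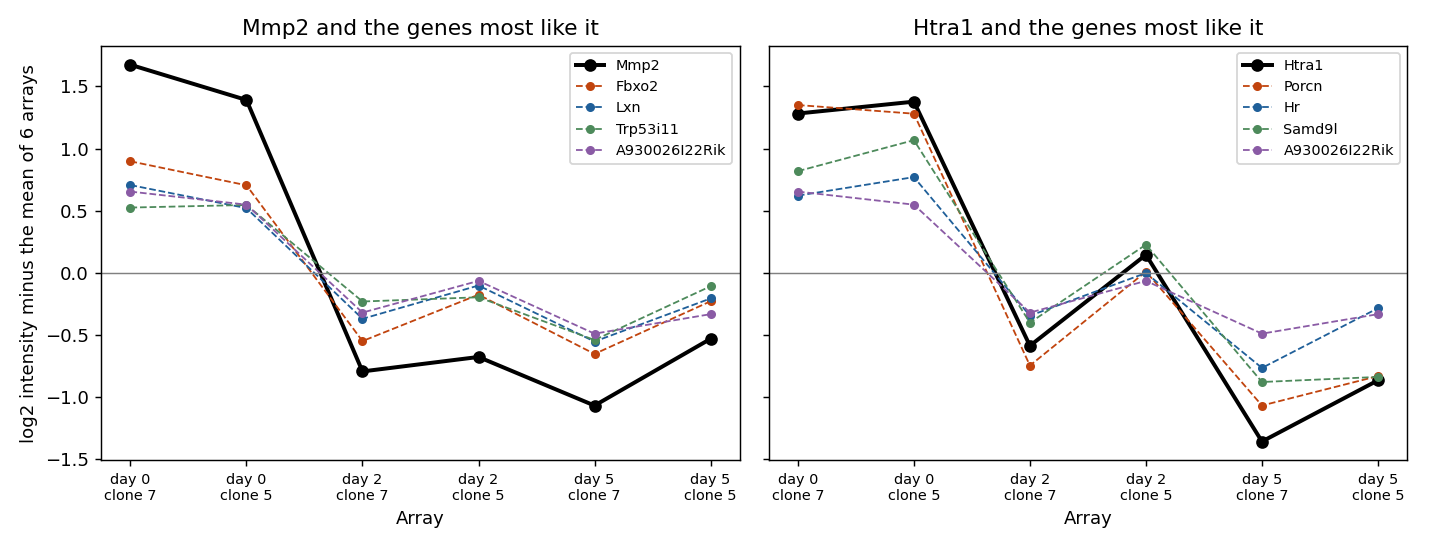
log2 intensity minus the mean of the 6 arrays (y axis) on each array (x axis, by day and clone) for Mmp2 (left, black) and Htra1 (right, black) and the 4 genes whose values correlate best with each (dashed, coloured). All are highest on the day 0 arrays, and Htra1 and its 4 genes are higher in clone 5 than in clone 7 on days 2 and 5.

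To set the 7 genes among their functional neighbours, 142 other genes in 8 lists were examined, of which 66 were measured. On day 5 against day 0 none was called higher and 3 of 66 were called lower. Of all genes 4.26% were called, 1.8% lower and 2.46% higher. Nothing is read from the count of 3, since the lists were written with earlier results of these data known. Plat, Hpn, Ctsl and Spock2 passed the detection filter only through day 5. Hpn and Spock2 were undetected on day 0 and had to be higher on day 5. Plat and Ctsl were each detected on 1 array of day 0, so the filter favoured a higher day 5 without forcing it. Ctsl was at -0.24 in clone 7 and 0.40 in clone 5. No list gene passed only through day 0. The median log2 difference over all 66 list genes was -0.11, against 0.00059 for all genes tested. In the matrix substrate list, 10 of 11 measured genes were below 0 with a median of -0.49. Col18a1, which encodes the collagen that yields endostatin, fell by 3.24 ± 0.21 (SE, limma adjusted p = 0.00194), and Nid1, which encodes the basement membrane linker nidogen, fell by 2.63 ± 0.20 (limma adjusted p = 0.0034). Col18a1 read 453 in clone 7 and 409 in clone 5 on day 5, against 3285 in clone 7 and 3693 in clone 5 on day 0. Nid1 read 195 in clone 7 and 188 in clone 5 on day 5, against 944 in clone 7 and 632 in clone 5 on day 0. The other probes of these genes were lower too (-2.58 and -1.15 for Col18a1, -2.20 for Nid1). Both calls were lost with the authors' series values and without the detection filter (highest adjusted p = 0.0921), fits in which no gene was called, at log2 differences of -3.29 and -3.24 for Col18a1 and -2.81 and -2.63 for Nid1.

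Among receptors and cell surface partners, Lrp1, the endocytic receptor that clears protease and inhibitor complexes, fell by 0.95 ± 0.18 (limma adjusted p = 0.0359), and 8 of 11 genes were below 0 (median -0.28). Lrp1 read 99.6 in clone 7, where it was not detected, and 106 in clone 5 on day 5, against 129 in clone 7 and 120 in clone 5 on day 0. The call of Lrp1 was lost in 11 of 14 alternatives, among them the fits without any 1 of the 6 arrays other than the day 5 array of clone 5. Sdc2, which encodes a cell surface heparan sulfate proteoglycan, was at 0.79 ± 0.35 and did not pass (adjusted p = 0.255), with 0.18 in clone 7 and 1.40 in clone 5, and its value was 1.499 without the day 0 array of clone 7 (adjusted p = 0.0449) and 0.079 without that of clone 5 (adjusted p = 0.888).

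The other protease lists held no called gene on day 5 against day 0. Of 20 other metalloprotease genes 7 were measured, with a median of 0.10 and the largest values in Mmp17 (0.33 ± 0.18) and Mmp11 (0.30 ± 0.17). The range over these 7 genes was -0.24 to 0.33. Of ADAM and ADAMTS genes 7 of 26 were measured (median -0.07), led by Adam23, a family member without protease activity, at -0.94 ± 0.22 (limma adjusted p = 0.0616), and Adam9 at 0.34. Adam23 passed with trended and robust shrinkage (adjusted p = 0.0266) and without the day 0 array of clone 5 (-1.27, adjusted p = 0.0375), and was at -0.61 without that of clone 7 (adjusted p = 0.246). Extracellular serine and astacin proteases had a median of 0.33 over 7 genes, 5 of them above 0. That count includes Plat and Hpn, which passed the detection filter only through day 5, and Hpn had to be higher there. The hepsin gene Hpn, undetected on day 0, was at least 1.10-fold higher, and the procollagen proteinase gene Bmp1 was at -0.43.

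Cathepsin genes, which encode lysosomal proteases, had a median of -0.17 over 7 measured genes. Ctsa was at -0.98 ± 0.23 and Ctsf at -0.92 ± 0.23 (limma adjusted p = 0.0635 and 0.0802), and without 1 day 0 array Ctsa was at -0.64 (clone 7 left out, adjusted p = 0.259) or -1.32 (clone 5 left out, adjusted p = 0.0397). Another Ctsa probe, detected on all 6 arrays, gave -0.30. Ctsf was near background, at 130 in clone 7 and 129 in clone 5 on day 0 and 106 in each clone on day 5. Its log2 difference ran from -1.54 to -0.32 over the alternatives, the latter without background correction. Proprotein convertases, the enzymes that remove propeptides, had a median of 0.08 over 5 genes, with Mbtps1 at -0.48 and Pcsk4 at 0.44. With 1 array left out Mbtps1 ran from -0.83 to -0.13, Bmp1 from -0.64 to -0.23, Mmp17 from 0.19 to 0.47 and Adam9 from 0.19 to 0.48.

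Among other protease inhibitors, 7 of 11 measured genes were above 0 with a median of 0.13 and none passed. Cst3, which encodes the cathepsin inhibitor cystatin C, read 2921 in clone 7 and 3243 in clone 5 on day 5, against 1854 in clone 7 and 1433 in clone 5 on day 0, a log2 difference of 0.91 ± 0.21 (limma adjusted p = 0.0614). It passed with trended and robust shrinkage (adjusted p = 0.0214). Serpine2, which encodes protease nexin-1, was at -0.57 ± 0.28 (limma adjusted p = 0.294), and at -0.086 without the day 0 array of clone 7 and -1.06 without that of clone 5.

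**Figure D5:**
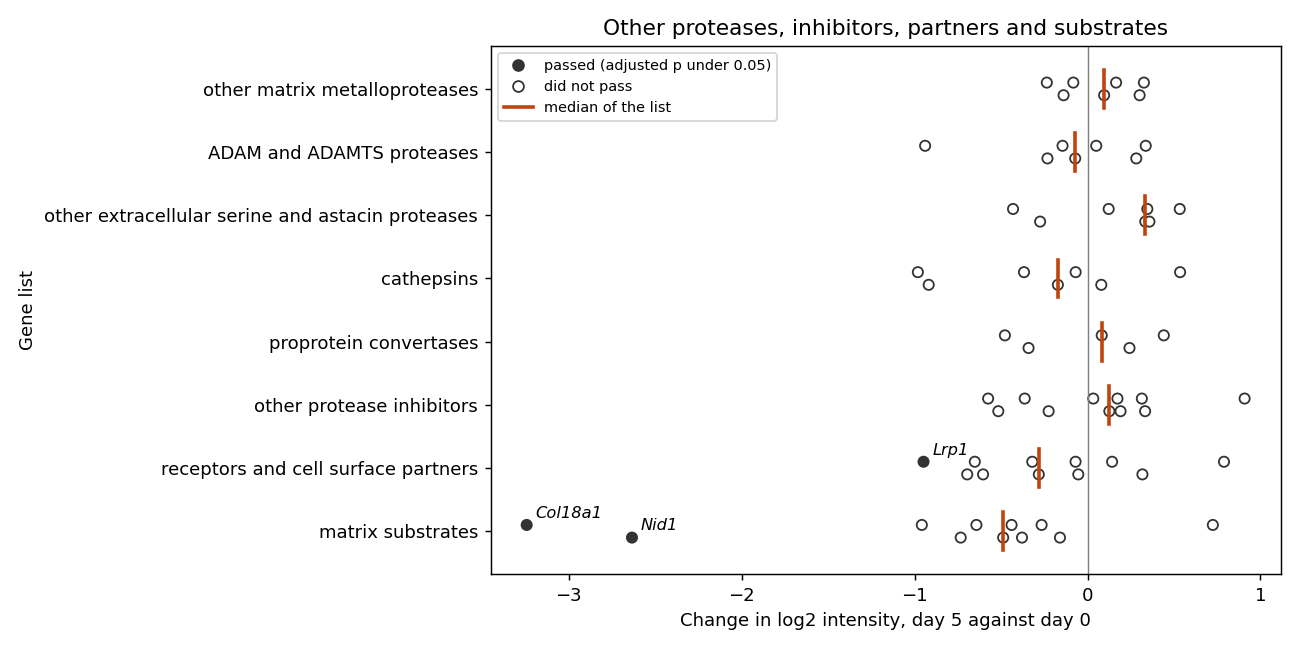
Change in log2 intensity on day 5 against day 0 (x axis) for the 66 measured genes of 8 lists (y axis), 1 point per gene, filled where the gene passed at an adjusted p under 0.05 and open where it did not; the orange bar is the median of the list. Only Col18a1, Nid1 and Lrp1 are filled, all below 0.

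On day 2 against day 0, 54 of the 66 genes were below 0 with a median of -0.29. The median of all genes was 0.015, and 51.8% of them were above 0. None of the 66 was called by limma, and 25 had an unadjusted p under 0.05, against 1630 of all 12030 genes. In the inhibitor list the mean of the clones was below 0 in 11 of 11 genes (median -0.30), where Timp1 was at -0.47 and Timp2 and Timp3 were at 0.04 and 0.22. Single clones differed, with Cst3 at 0.27 and Serping1 at 0.31 in clone 5 and Serpini1 at 0.25 in clone 7. Reck and Serpini1 were each detected on 1 array of day 2 and Spock2 on 0, so these genes passed the filter through other days. On day 5 against day 2, 48 of 66 were above 0 (median 0.26), against 47.3% of all genes (median -0.020). None of the 66 was called, with 19 at an unadjusted p under 0.05 by limma, against 2148 of all 12030 genes. Clone 7 against clone 5 gave a median of -0.01 and no call, with 13 at an unadjusted p under 0.05 by limma, against 1356 of all 12030 genes. Nothing is read from the counts of list genes in these comparisons, since the lists were written with earlier results of these data known. List genes not detected on both day 2 arrays passed the filter through another day, which favours a lower day 2 value. Both day comparisons share the day 2 arrays.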

How the data were processed

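Total RNA of 6 samples was read on Illumina mouse bead arrays (label Cy3). Per the file headers, the deposited probe table gives the average bead signal as intensity, deposited as non-normalised, and a detection p-value for each probe. The series values were deposited as log2 values, as their comparison with the intensities of the same probes shows; the steps that made them are not stated, and cells are empty for 15401 to 15441 probes of an array. The authors' table of log2 fold changes was deposited for 698 probes. No source used here names the software behind these. Between 16739 and 18150 probes were detected on an array (37% to 40.1%), and the number of arrays limits the precision.

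From the intensities, background was corrected by normexp with the detection p-values (offset 16), and signals were quantile normalised (limma 3.58.1, R 4.3.3) and expressed as log2. Of 17471 detected probes, the one with the highest mean stood for each of 12030 genes. Symbols were updated with RefSeq (GRCm38.p6; 35777 probes matched, 9504 kept their name). A limma model with day and clone (2 residual and 5.24 prior degrees of freedom) gave the log2 differences and SE, with p-values adjusted by Benjamini-Hochberg over all genes and a threshold of 0.05. Clone is a block because arrays of a clone come from the same line. Deviations from the day means correlated between days at 0.36 (0 and 2), -0.066 (0 and 5) and 0.34 (2 and 5). This model removes the mean difference between the 2 lines, so p-values rest on how far that difference varied over the days. The prior degrees of freedom add the spread seen over all genes. No repeated cultures of a line enter the p-values. An "at least" fold sets undetected arrays at the lowest detected signal of the array. It is a mean of the clones at the offset of 16, and a single clone or another background step can give less. The procedure was tested on simulated data.

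The 7 genes, the 8 lists and the marker lists were chosen with earlier results of these data known. Named were all 7 genes; of each list, up to 4 called genes with the largest day 5 change or, with fewer than 2 called, the 2 largest; genes called in another comparison; and the 4 genes most correlated with Mmp2 and with Htra1. A promoter motif was searched on both strands of the 250 bases before the RefSeq start. The fit was repeated without the clone block, without background correction, with an offset of 50, on median-scaled arrays, on the series values, on unfiltered probes, on probes with a detection p under 0.01 on all 6 arrays, on probe means, with trended and robust shrinkage, and with each array left out.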

Additional observations from a re-analysis of the deposited data

Results flagged for a closer look

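In 4 results the single array pair of clone 7 and that of clone 5 moved in opposite directions, a difference that was not tested. Mmp2 on day 5 against day 2 was at -0.27 in clone 7 and 0.15 in clone 5 on the log2 scale. Timp1 on day 5 against day 0 was at -0.36 in clone 7 and 0.042 in clone 5. Timp3 on day 2 against day 0 was at 0.52 in clone 7 and -0.081 in clone 5, and Mmp15 in the same comparison was at -0.20 in clone 7 and 0.24 in clone 5; both probes were undetected on day 0.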

How the results depend on the processing

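Mmp2, Mmp14 and Htra1 stayed below 0 on day 2 and on day 5 against day 0 in all 15 alternatives. Timp2, Timp3 and Mmp15 stayed above 0 on day 5 in all 14 that measured them. Nothing is read from these signs, since the day changes chose the genes. Timp3 and Mmp15 also passed the detection filter only through day 5 and had to be higher there. Some alternatives, such as the fits without the clone block or with trended and robust shrinkage, leave the mean day difference unchanged. The day 5 ranges were -2.64 to -1.94 for Mmp2, -0.97 to -0.57 for Mmp14 and -2.70 to -1.91 for Htra1. They were 0.24 to 1.09 for Timp2, 0.25 to 1.90 for Timp3 and 0.08 to 0.81 for Mmp15, while Timp1 ran from -0.46 to 0.14. Leaving out 1 array, the clone differences ran from -0.33 to 0.083 for Mmp2, -0.10 to 0.056 for Mmp14 and -0.037 to 0.36 for Timp1. The number of all genes called on day 5 against day 0 was 512, and without clone as a replicate block it was 208. It was 127 without background correction, 301 with the stricter detection filter (p under 0.01 and all 6 arrays) and 0 both with the authors' series values and on unfiltered probes (2094 and 3742 at an unadjusted p under 0.05 by limma), and 138 to 672 with 1 array left out (138 and 250 when clone 7 lacked day 0 or day 5). Of the list genes 3 were called, 0 on the series values and on unfiltered probes, 5 with trended and robust shrinkage and 2 to 4 with 1 array left out. On day 2 against day 0, that stricter filter and trended shrinkage each called 3 genes, 2 of them on the lists, and 1 array left out gave 0 to 17 and 0 to 3 (17 and 3 without either day 5 array). On day 5 against day 2, 95 genes were called, 13 without the replicate block, 1 without background correction, 29 with an offset of 50, 38 with the stricter filter, 61 with the mean of probes, 240 with trended shrinkage (3 on the lists), 0 on the series values and on unfiltered probes (1701 and 3293 at an unadjusted p under 0.05), and 0 to 516 with 1 array left out (0 to 2 on the lists; 329 with either day 0 array omitted; 41 and 516 when clone 7 or clone 5 lacked day 5; 0 and 2 when they lacked day 2). Between clones, median scaling called 1 gene, trended shrinkage 15, and 1 array left out 0 to 79 (79 without either day 5 array). The causes were not tested. Signals of Mmp15, Timp2 and Timp3 lie near background, which limits their size estimates.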
